A study of Equus caballus with 9 samples.

Results

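Of 21689 horse genes with deposited values, 205 were highest in fetal tenocytes and are called the fetal-highest genes here. They were chosen by their measured levels, in CPM (a gene's count divided by the total of its library and multiplied by 1000000). A gene was taken when it had at least 2 CPM in each of the 3 fetal lines, when its lowest fetal value lay above the highest of the 6 adult and ESC-tenocyte values, and when its fetal mean was more than 4 times the adult mean and more than 4 times the ESC-tenocyte mean. The height of these genes in fetal tenocytes is therefore how they were selected on these data and is not a finding.

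Tenocytes are the resident fibroblasts of tendon, which make and maintain its collagen-rich matrix. Fetal tendon is known to heal with little scar, whereas adult tendon forms scar tissue, which is why fetal cells and cells derived from embryonic stem cells (ESCs) are compared with adult cells. In 3D culture the cells contract a collagen gel into a strand that resembles young tendon.

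RNA was sequenced from such gels after 14 days, with 3 lines of each kind and 1 library per line. Adult tenocytes came from horses aged 2 to 6 years (line CD at passage 4, TB130911 at passage 6 and TB250718B at passage 4). Fetal tenocytes were named for their day of gestation (271d at passage 5, 319d at passage 8 and 320d at passage 4). By the study's methods, adult cells came from the superficial digital flexor tendon of Thoroughbreds, and fetal cells from tendons of fetuses aborted spontaneously. The site of the fetal tendons is not given, so that age and tendon site cannot be told apart. ESC-tenocytes were differentiated in the gels themselves from HJ (passage 12), IG (passage 16) and PW (passage 14), in ESC medium without leukaemia inhibitory factor. Adult and fetal cells were expanded and kept in the gels in tenocyte medium and were seeded as suspended cells, whereas ESCs were seeded as clumps and kept in ESC medium. Before seeding, ESCs were kept on a layer of inactivated mouse embryonic fibroblasts. ESC-tenocytes were at passages 12 to 16, and the adult and fetal cells at 4 to 8. Medium, feeder layer, form of seeding, passage and cell origin therefore cannot be told apart in comparisons with ESC-tenocytes. The total count was 19801323 in 271d, 20705852 in 319d and 10568491 in 320d. It was 11109492 in CD, 20411868 in TB130911 and 18536676 in TB250718B, and 9412112 in HJ, 10772461 in IG and 8965593 in PW. The 4 libraries above 15000000 counts (271d, 319d, TB130911 and TB250718B) are called the deeper class and the other 5 the shallower class. All ESC-tenocyte libraries were in the shallower class. The study's methods name a pair of sequencing providers, each with its own library kit (stranded TruSeq or Clontech Smart cDNA) and sequencer, and the labels do not say which library came from which. Depth class and differences between lines therefore cannot be told apart from provider and kit. No pair of lines within a group was a repeat of one library, with a chi-square per degree of freedom from 45.8 (HJ and PW) to 101 (271d and 319d) between their counts. In bulk RNA, fewer cells that express a gene and less RNA per cell cannot be told apart.

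The deposited values carry Ensembl identifiers without names, and the RefSeq gene table of the thoroughbred assembly matched 0 of the 205 members. The members could therefore not be grouped by function, and the label of tenocyte could not be checked against tendon markers or against markers of other cell types. Only 5 members are given by identifier.

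A pair of libraries stood apart from the others of their group in these genes. The ESC line IG was the highest ESC-tenocyte line in 183 of the 205 members (89.3%), whereas it was highest in 33.7% of all 13197 genes tested. The adult line TB130911 was the highest adult line in 155 members (75.6%), against 45.9% of all genes tested. The rule used these adult and ESC-tenocyte values, whereas the genes tested were not restricted by it. The orders of these lines within the members are therefore a description. In 142 members both were the highest of their groups, a count with no share over all genes beside it. Since each line alone was highest in most members, nothing is read from this count. Each member was then set as a percentage of its fetal mean. The median over members was 8.23% in IG (quartiles 5.60% and 11.6%), 0.415% in HJ and 0.402% in PW. It was 16.3% in TB130911 (quartiles 8.52% and 25.7%), 7.03% in CD and 4.73% in TB250718B. In HJ and PW, 122 and 127 members were at 3 counts or fewer, so that the medians of HJ and PW are not exact levels. IG and TB130911 each had the highest passage of their group. IG was in the same depth class as HJ and PW, and TB130911 in the same class as TB250718B. The part of passage, or of any other property of these lines, in their levels was not tested. The counts and levels that lead each comparison are given with and without them where they moved.

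**Figure D1:**
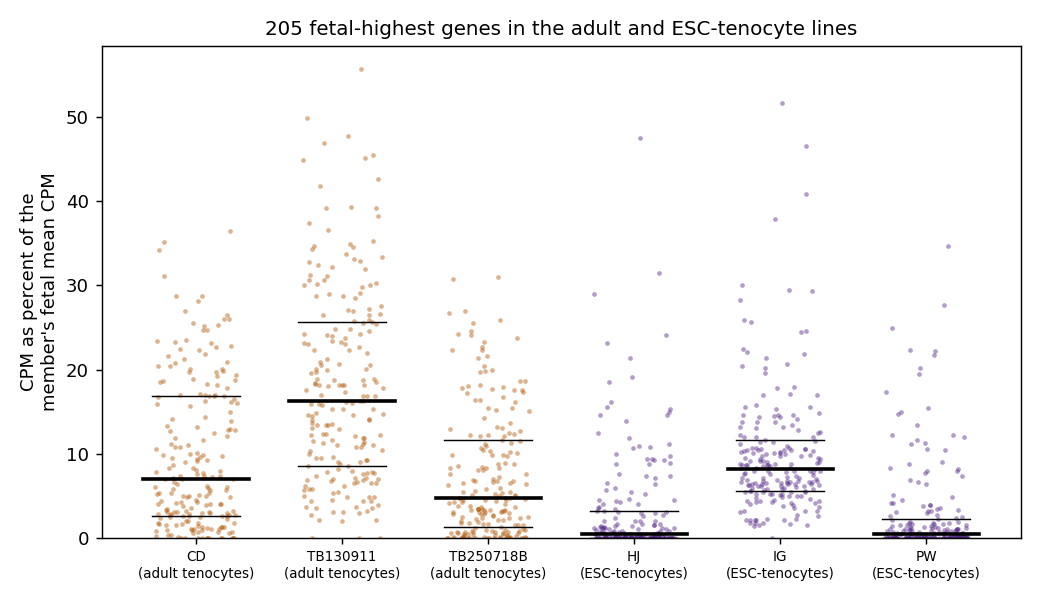
CPM of each fetal-highest gene in the 6 adult and ESC-tenocyte libraries, as a percentage of that gene's mean CPM over the 3 fetal lines. Each point is 1 of 205 genes, the thick line is the median and the thin lines are the quartiles. IG (median 8.23%) lies above HJ (0.415%) and PW (0.402%), and TB130911 (16.3%) above CD (7.03%) and TB250718B (4.73%). In HJ and PW, 122 and 127 members are at 3 counts or fewer, so that the medians of HJ and PW are not exact levels.

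A total of 56 members had 0 counts in both HJ and PW, which allows up to 3 counts in each. Since they were picked for these 0 counts, IG could only be equal or higher in them. The same measure was not taken over other genes, so that the levels of IG there are a description. IG had a median of 7 counts over these 56 members, from 0 to 119, and more than 3 counts in 40 of them. Relative to the fetal mean, IG lay at a median of 5.85% in them (quartiles 3.73% and 9.13%). Across all members, 178 had an IG level between 2% and 20% of the fetal mean, compared with 55 for HJ and 46 for PW. In IG, 22 members were at 3 counts or fewer, against 122 in HJ and 127 in PW, in libraries of the same depth class.

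The fetal-highest genes spanned a wide range of expression. The fetal mean was 30.4 CPM at the median (quartiles 10.9 and 82.9 CPM), with 48 members under 10 CPM, 114 from 10 to under 100 CPM and 43 at 100 CPM or more. In 4 members it was 1000 CPM or more. With group means set to no less than 3 counts per library, the median ratio of the fetal to the adult mean was 9.12 (quartiles 5.50 and 18.2) and that of the fetal to the ESC-tenocyte mean 26.2 (quartiles 13.8 and 38.7). Without TB130911 the former was 13.4, and without IG the latter was 38.9, a lower limit. The ESC-tenocyte mean was at or under this floor in 47 members with all lines and in 122 without IG. The adult mean was at or under it in 7 members, or in 29 without TB130911. These ratios follow from the selection and carry no test.

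Together the members held 2.80% ± 0.777 (SD, n = 3) of the counts in fetal tenocytes, with 3.69% in 271d, 2.42% in 319d and 2.28% in 320d. In adult tenocytes they held 0.178% (CD), 0.521% (TB130911) and 0.134% (TB250718B). In ESC-tenocytes they held 0.0517% (HJ), 0.260% (IG) and 0.0460% (PW). Thus IG lay above the adult lines CD and TB250718B in the summed level, and the adult and ESC-tenocyte groups overlapped. Without IG and TB130911 they did not overlap, with means of 0.156% in adult and 0.0488% in ESC-tenocytes (2 lines each). IG was the only ESC-tenocyte line above any adult line and was left out after its level was seen. The lack of overlap therefore follows from leaving it out. The 95% Clopper-Pearson intervals of these shares reached at most 0.00901 percentage points to either side and cover counting error only. The pair of members with the highest fetal means held 1.49% of all counts in 271d, 0.808% in 319d and 0.890% in 320d.

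**Figure D2:**
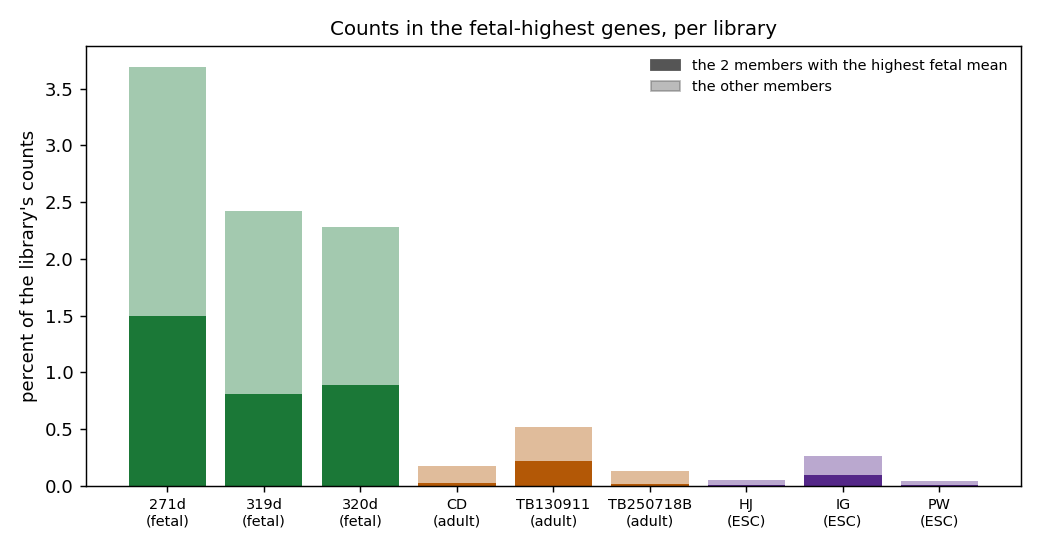
Percentage of each library's counts in the 205 fetal-highest genes. The dark part of a bar is the 2 members with the highest fetal mean and the light part the other members. The fetal libraries lie between 2.28% and 3.69%, and TB130911 (0.521%) and IG (0.260%) are the highest of the adult and ESC-tenocyte libraries.

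ENSECAG00000018853 had the highest fetal mean, at 5570 ± 1618 CPM (SD, n = 3), with 6338 CPM in 271d, 3711 in 319d and 6660 in 320d. In adult tenocytes it was at 215 CPM (CD), 1673 CPM (TB130911) and 187 CPM (TB250718B). In ESC-tenocytes it was at 1.91 CPM (HJ), 312 CPM (IG) and 1.56 CPM (PW). It was thus expressed in every adult line and in IG, but reached only 18 and 14 counts in HJ and PW. ENSECAG00000023733 was second, at 5061 ± 3227 CPM (SD, n = 3), with 8578 CPM in 271d, 4368 in 319d and 2236 in 320d. Its adult levels were 27.0 CPM (CD), 471 CPM (TB130911) and 4.26 CPM (TB250718B), and its ESC-tenocyte levels 35.7 CPM (HJ), 605 CPM (IG) and 30.8 CPM (PW). In both genes TB130911 and IG were the highest lines of their groups, and in the second gene IG lay above every adult line. Neither gene passed edgeR's quasi-likelihood test between adult and ESC-tenocytes with all lines. For ENSECAG00000018853 the log2 fold change of adult over ESC-tenocytes was 2.17 (standard error 2.43, adjusted p = 0.488 in edgeR). It was 8.22 without IG (adjusted p = 0.00398 in edgeR), which passed, and the adjusted p ranged from 0.000241 to 0.799 over its alternative fits in edgeR. For ENSECAG00000023733 it was -2.36 (standard error 2.24, adjusted p = 0.414 in edgeR), -0.44 without the term for depth class, -3.68 without TB130911 and 0.52 without IG, so that its direction was not settled. Its adjusted p ranged from 0.161 to 0.835 over its alternatives in edgeR. DESeq2 gave no adjusted p for either gene.

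ENSECAG00000002918 was taken as BMP7, a secreted bone morphogenetic protein of the TGF-β family that takes part in skeletal and kidney development. The name comes from an earlier match of its fold changes to those the study prints for BMP7. It is an inference, since no deposited file or reference table used here pairs the identifier with a name. It ranked 173 of 205 by fetal mean, so that it was one of the weaker members. Its fetal level was 7.47 CPM in 271d, 13.2 CPM in 319d and 2.84 CPM in 320d, a ratio of 4.66 between the highest and the lowest line. The highest value outside fetal tenocytes was 0.278 CPM (IG), from 3 counts, followed by 0.245 CPM (TB130911), from 5 counts. The order of IG and TB130911 above the other lines of their groups was thus seen here too, but at counts too low to separate them. Its adult and ESC-tenocyte group means both lay under the floor of 3 counts per library, so that no fold change between them is given. These are levels of RNA. In the study's immunostaining, which it calls not quantitative, BMP7 protein was also seen in adult and ESC-tenocytes, at a lower level.

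**Figure D3:**
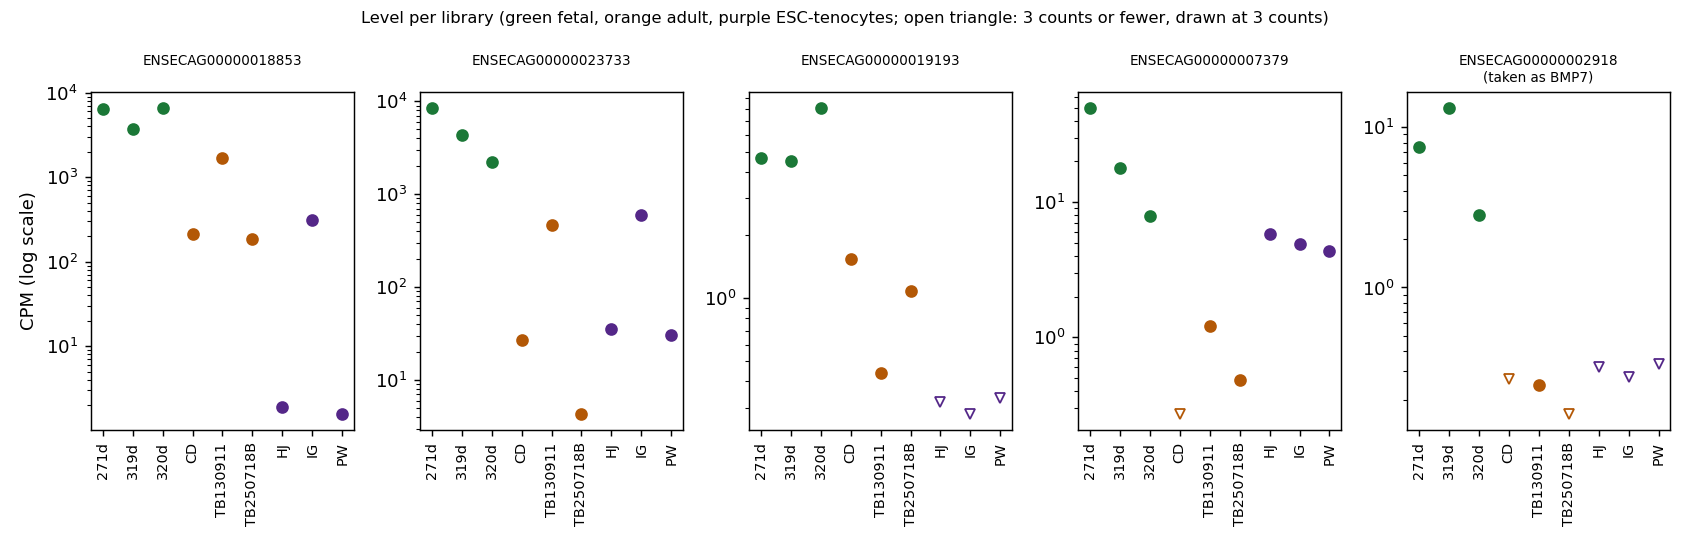
CPM per library, on a log scale, of the 5 members given by identifier. Filled points are values above 3 counts, and open triangles are libraries with 3 counts or fewer, drawn at the level of 3 counts. The 3 fetal lines lie above the 6 other lines in each panel, as the selection requires, and the order of the other lines differs between genes.

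The fetal lines were unequal in these genes. The line 271d was the highest fetal line in 120 members (58.5%), 319d in 44 and 320d in 41. Among the 10957 genes at 2 CPM or more in every fetal line, 271d was highest in 37.6%. The line 320d was the lowest fetal line in 114 members (55.6%), against 36.9% of those genes. The full order from 271d through 319d to 320d was seen in 79 members. The ratio of the highest to the lowest fetal line was 2.32 at the median (quartiles 1.74 and 3.38), compared with 1.34 (quartiles 1.19 and 1.62) over all genes at 2 CPM or more in every fetal line. It was under 2 in 75 members and over 5 in 26. The members were selected on these same fetal values, which favours genes with a high value in any fetal line, so that the spread and the order of lines are a description and not a difference from other genes. The line 271d was the youngest in gestation, and 320d was the single fetal library of the shallower class. With 1 library per line, gestation, passage, depth class and the animal cannot be told apart.

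Genes chosen by the same rule for adult tenocytes had another order of lines. Of these 137 adult-highest genes, 271d was the highest fetal line in 7 and the lowest in 108, and TB130911 was the highest adult line in 13 and the lowest in 92. Over all genes tested, 271d was the lowest fetal line in 31.0% and TB130911 the lowest adult line in 24.8%. In the fetal-highest genes, TB130911 was the lowest adult line in 11 and TB250718B in 126. Both sets were selected on these same adult and fetal values, so that the orders of lines within them are a description. IG was the highest ESC-tenocyte line in 84 of the adult-highest genes (61.3%). It was highest in 318 of the 997 genes highest in ESC-tenocytes by the same rule (31.9%). No test was made of these differences between gene sets, and the rule used the ESC-tenocyte values in choosing each of them.

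Each fetal line in turn was left out of the choice and then measured against the same adult and ESC-tenocyte libraries. With 271d left out, the rule picked 208 genes on the other 8 libraries, and 166 of them (79.8%) also met it in 271d, being at 2 CPM or more, above the 6 adult and ESC-tenocyte libraries and over 4 times both of their means. Among all genes at 2 CPM or more in 271d, 2.9% did so. With 319d left out, 160 of 220 genes (72.7%) met the rule in 319d, against 2.98% of all genes at 2 CPM or more in it. With 320d left out, 145 of 268 genes (54.1%) met it in 320d, against 2.09% counted in the same way. The share was thus lowest in 320d, although 232 of the 268 genes (86.6%) lay above the 6 other libraries in that line. Without TB130911 and IG the shares were 84.6% for 271d, 77.8% for 319d and 64.9% for 320d. Of all genes at 2 CPM or more in the line, 3.38%, 3.52% and 2.7% did so. The picked genes themselves were not restricted to 2 CPM in the line left out. The adult and ESC-tenocyte values in these comparisons are the same that chose the genes, so that only the fetal line is independent of the choice. The picked genes were set against all genes at 2 CPM or more, which were not chosen for low adult and ESC-tenocyte values. The gap between the shares is therefore built in part into the choice and is a description.

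The comparison of adult with ESC-tenocytes was not used to choose the members, although the rule keeps the fetal mean at more than 4 times either group and so restricts the counts on which the comparison rests. In edgeR's quasi-likelihood test on all 9 libraries, with a term for depth class, calls needed an absolute log2 fold change of at least 2 and an adjusted p (Benjamini-Hochberg, over all genes tested) under 0.01. Of the 205 members, 3 were called higher in adult tenocytes and 1 higher in ESC-tenocytes, 1.95% in all. Over the 13197 genes tested, 9.49% were called higher in adult tenocytes and 7.81% higher in ESC-tenocytes, 17.3% in all. All 205 members passed the filter on low counts, but 64 did so only through the fetal libraries, in which they were selected to be high. The other 141 passed it on the adult and ESC-tenocyte libraries alone, a restriction added after the data were seen. Of these 141, 1 was called higher in adult tenocytes and 1 higher in ESC-tenocytes (1.42%), against 17.6% of the 12791 genes that passed in the same way. The log2 fold change was above 0 in 106 of the 141 (75.2%), against 48.3% of those genes, with a median of 1.04 against -0.04. An unadjusted p under 0.05 was reached by 22 of them (15.6%), against 55.7%. Without IG, 123 of the 141 (87.2%) were above 0, with a median of 3.14, and 93 (66.0%) reached that p, against 54.3% of the genes, so that these values rest on IG. Since the rule restricts the adult and ESC-tenocyte levels, nothing particular to the members is read from these shares. TMM scaling raised adult values by 0.13 on the log2 scale relative to ESC-tenocyte values.

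The count of calls depended most on IG. Without it, 45 members were called higher in adult tenocytes and 1 higher in ESC-tenocytes by edgeR (22.4%, against 18.8% of all genes in that fit). Of the 141 members that passed the filter without the fetal libraries, 41 and 1 were then called (29.8%, against 19.8% of the genes that passed likewise). Without both IG and TB130911, an alternative added on seeing these levels, 42 and 1 members were called (21.0%, against 17.7% of all genes). Among the 141 these were 38 and 1 (27.7%, against 18.3%), with a median log2 fold change of 3.10. Fitted sizes without IG are uncertain, since 64 of the 141 had a mean of HJ and PW at or under the floor of 3 counts. DESeq2 on all libraries called 19 members higher in adult tenocytes and 1 higher in ESC-tenocytes (9.76%, against 22.3% of all genes), of which 9 and 1 were among the 141 (7.09%, against 22.1% of the genes that passed likewise). The count of 4 in edgeR also moved when other libraries were left out. It was 1 without HJ (0.488% of members, against 12.0% of all genes in that fit) and 1 without PW (against 13.6%). It was 2 (0.976%) without TB130911, 271d or 319d, where 13.5%, 13.6% and 13.3% of all genes were called. It was 5 (2.44%) without TB250718B, against 13.2%. It was 0 in edgeR without CD and without 320d, where 4.50% and 10.3% of all genes were called, with an unadjusted p under 0.05 in 11 members (5.37%, against 39.7% of all genes) and 25 members (12.2%, against 47.9%). The counts with a library other than IG left out were taken over all members. They include the 64 that passed the filter only through the fetal libraries, so that nothing is read from them. With all libraries included, 1.42% of the 141 other members were called in edgeR and 7.09% in DESeq2. A gene to which DESeq2 gave no adjusted p counted as not called, among them the pair of members with the highest fetal means. The number of such members was not taken, so that the shares in DESeq2 mix them with members that were tested. Most of the 141 thus did not pass the test between adult and ESC-tenocytes, which does not show that their levels were equal.

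Among the called members, ENSECAG00000019193 had the smallest p of those higher in adult tenocytes. It had 17 (CD), 9 (TB130911) and 20 (TB250718B) counts in adult tenocytes and 0 (HJ), 1 (IG) and 0 (PW) in ESC-tenocytes. Every adult line exceeded the floor of 3 counts and no ESC-tenocyte line did. On the log2 scale adult over ESC-tenocytes was 5.24 (standard error 0.89, adjusted p = 0.0032 in edgeR), a size that is uncertain at these counts. This member was one of the 64 that passed the filter only through the fetal libraries, so that its call is given as a description. This was a member in which TB130911 was the lowest adult line.

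ENSECAG00000007379 was the single member called higher in ESC-tenocytes. It was at 5.84 CPM (HJ), 4.92 CPM (IG) and 4.35 CPM (PW) in ESC-tenocytes. In adult tenocytes it was at 0.180 CPM (CD), 1.22 CPM (TB130911) and 0.486 CPM (TB250718B). The level in CD came from 2 counts, under the floor of 3 counts, so that the size of the difference is uncertain. The ESC-tenocyte lines agreed closely and did not overlap the adult lines, and IG did not stand apart in this gene. Adult over ESC-tenocytes was -4.56 on the log2 scale (standard error 0.70, adjusted p = 0.00218 in edgeR). This size depended on the term for depth class. Without it the value was -2.79 (standard error 0.77, adjusted p = 0.0149 in edgeR), nearer the group means of 0.630 CPM in adult and 5.04 CPM in ESC-tenocytes, and the call was lost. The call was lost too with only these groups compared (-4.54, adjusted p = 0.0189 in edgeR). Its fetal level was 49.997 CPM in 271d, 17.7 CPM in 319d and 7.85 CPM in 320d, so that 320d lay closer to the ESC-tenocyte lines than to 271d. Of the alternative fits, 11 of 16 called this gene and 10 of 15 called ENSECAG00000019193, with adjusted p-values from 2.3e-09 to 0.028 and from 8.92e-05 to 0.0536 in edgeR and DESeq2. In the shallower libraries alone, where CD is the single adult library, neither passed, at -4.53 and 5.23. Both calls were lost in edgeR without CD and without 320d, and that of ENSECAG00000019193 also without HJ and without PW.

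The comparisons of fetal with adult and with ESC-tenocytes chose the members, so that their calls are given as a description. In the same edgeR fit 2 members were called higher in fetal than in adult tenocytes, where 0.0909% of all genes were, and 62 higher in fetal than in ESC-tenocytes, where 7.98% of all genes were. DESeq2 called 107 members higher in fetal than in adult tenocytes (2.54% of all genes) and 120 higher in fetal than in ESC-tenocytes (12% of all genes). In edgeR the count of 62 fell to 2 without 320d. The share of all genes called in either direction fell from 14.7% to 2.04%. The count was 39 without TB130911 (10.6% of all genes) and 143 without IG (17.4%). For fetal against adult tenocytes, the count of 2 was 4 without IG (0.109%). It was 0 with any other library left out, TB130911 among them, where 0.00736% to 0.0361% of all genes were called.

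The thresholds of the rule passed through a dense range of genes. A lowest fetal value under 2 CPM was the only condition failed by 225 genes. The members nearest that threshold had a lowest fetal value of 2.02 and 2.08 CPM, and the nearest genes outside it 1.98 and 1.97 CPM. A fetal mean of no more than 4 times an adult or ESC-tenocyte mean was the only condition failed by 752 genes. The smaller ratio was 4.01 and 4.05 in the nearest members and 3.996 and 3.99 in the nearest genes outside. The condition on overlap alone kept out 20 genes. The ratio of the lowest fetal to the highest other value was 1.01 and 1.04 in the nearest members and 0.957 and 0.916 in the nearest genes outside.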

How the data were processed

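Estimated counts per gene were deposited by the authors, who made them with Salmon, corrected for GC bias, on the horse transcriptome of Ensembl, and summed to genes with tximport in R 3.5.2, with no normalisation. The members and lists were chosen with earlier results of these data known. CPM used the column sums. For tests the estimated counts were rounded, filtered with filterByExpr by group (13197 genes), scaled by TMM and fitted with edgeR 4.0.16 in R 4.3.3 (glmQLFit, glmQLFTest) on all 9 libraries with group and depth class (above or below 15000000 counts) as terms. The study's methods state a batch correction, but the labels assign no batch, so depth class stands in for it. Alternatives were DESeq2 1.42.0, other scalings, thresholds and filters, and each library left out. Identifiers were printed for the 2 members with the highest fetal mean, the called member of smallest p in each direction of adult against ESC-tenocytes, and BMP7, which the study names. The gene lists could not be applied, because 0 of 21689 identifiers matched a name. A count of 0 allows up to 3 counts, for counting error only. With 1 library per line, p-values measure the spread between lines.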

Additional observations from a re-analysis of the deposited data

How the results depend on the processing

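The number of fetal-highest genes stayed within 1.5 times 205 under 16 alternatives, from 157 to 270, and was 109 with a fold of more than 8. Over its alternatives, the held-out share ranged from 78.5% to 84.6% in 271d and from 71.8% to 77.8% in 319d. In 320d it ranged from 52.3% to 54.5%, other than 64.9% without TB130911 and IG.

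In parentheses is the share of all genes called in either direction in the same setting. Members called between adult and ESC-tenocytes (4 of 205) numbered 18 at an adjusted p under 0.05 (23.2%), 20 in DESeq2 (22.3%), 11 without the depth class term (20.6%) and 43 without TB130911 and IG (17.7%). Among members passing the filter without the fetal libraries they were 2. In edgeR they were 0 with only these groups compared (7.59%), a fit that tested 141 members and not 2 of the 4 called, and 0 in the shallower libraries (1.96%), which hold 1 adult library. An unadjusted p under 0.05 was reached there by 11 members (47.9% of all genes) and 12 members (40.9%). With 1 library left out they ranged from 0 (without CD, 4.50%) to 46 (without IG, 18.8%). Members called between fetal and adult tenocytes (2) numbered 49 (2.21%), 107 (4.28%), 1 (0.0758%) and 19 (0.372%) in the first 4 settings and 1 with only these groups compared (0.0388%). They were 0 in edgeR with DESeq2's size factors (0.0379%), without the filter (0.0283%) and in the deeper libraries (0%), with 184, 188 and 189 members at an unadjusted p under 0.05 (23.0%, 18.8% and 25.5% of all genes) in a contrast the rule used. With 1 library left out they were 4 without IG (0.109%) and 0 with any other library left out (0.00736% to 0.0361%). Members called between fetal and ESC-tenocytes (62) numbered 153 (22.1%), 120 (21.0%), 133 (19.3%) and 150 (16.6%) in the first 4 settings, and 9 with only these groups compared (5.01%). They were 0 in the shallower libraries in edgeR (1.32%), which hold 1 fetal library, with 109 members at an unadjusted p under 0.05 (39.0%), and ranged from 2 (without 320d, 2.04%) to 143 (without IG, 17.4%). DESeq2 was run on all libraries only, and genes to which it gave no adjusted p counted as not called. Apart from fewer libraries or genes in some settings, the cause was not tested. Alternatives without both TB130911 and IG were added after these lines were seen to stand apart. No paired analysis was made, because the lines came from different animals or embryos and no label ties them across groups.

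At these depths 112 of 205 members were at 3 counts or fewer in both HJ and PW, so that their levels there are known only as upper limits.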

Other observations

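Leaving TB130911 out of the rule gave 258 genes, 203 of them among the 205 members and 55 others. In 54 of these 55 TB130911 was the highest adult line, at a median of 48.8% of the fetal mean, compared with 18.9% in CD and 16.8% in TB250718B. It lay at or above the lowest fetal line in 22 of them and above the highest fetal line in 1. IG was the highest ESC-tenocyte line in 52 of the 55, at a median of 8.49% of the fetal mean, against 0.182% in HJ and 0.404% in PW. These genes met the rule without TB130911 and failed it with TB130911 included. Its height in them therefore follows from the choice and is not a finding. Leaving out 320d gave 268 genes, 194 of them among the members, and leaving out TB250718B gave 182, of which 180 were members.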
